A study of Rattus norvegicus with 9 samples.

Results

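A group of 9 genes of the rat dorsal root ganglion (DRG) is described: A2m, Crisp3, Ptprh, Fcrl2, Tgm1, Stac2, Flrt3, Csrp3 and Reg3b. They were chosen by symbol for low values in sham ganglia and high values in injured ganglia of these same libraries, with no numeric threshold, so 9 of the 20194 genes listed were taken and all 9 were found. Because sham and injured values picked the genes, their difference between these 2 groups is given as a description, without a test. What the choice did not use is the level after G15, and that contrast was tested.

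RNA-Seq was performed on DRG tissue of adult male Sprague Dawley rats in 3 groups of 3 libraries, and the study's texts differ on how many rats gave tissue, so whether a library is 1 rat or a pool is not settled and p-values measure the spread between these libraries. The sham group had no nerve injury. The SNI group had spared nerve injury, in which the tibial and common peroneal branches of the sciatic nerve are cut and the sural branch is preserved. The SNI_G15 group had the same injury and received G15, an antagonist of the G protein-coupled oestrogen receptor GPER, through an intrathecal catheter implanted on day 5 and for 24 h, dissolved in 2% DMSO per the labels. The titles call the sham and SNI libraries controls for G15, and do not say whether those rats received vehicle or a catheter. The paper chose day 5 after SNI for both sampling and drug treatment, so SNI_G15 tissue may have been taken later after injury than SNI tissue. In SNI_G15 against SNI the antagonist, its DMSO vehicle, the catheter and a later day of sampling therefore cannot be told apart. The extraction text of the labels names another cell source than the DRG of the other labels. Sensory neuron genes such as Prph (mean FPKM 1342 in sham) and Tubb3 (2295) were abundant in these libraries.

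A DRG holds the cell bodies of the sensory neurons that supply the skin and muscle, wrapped by satellite glia, together with Schwann cells, macrophages, fibroblasts and vessels. When a peripheral axon is cut, the neuron switches part of its transcription from signalling to survival and regrowth, and resident and incoming immune cells respond. Several genes best known from other tissues (pancreas, muscle, skin, gut) are among those that appear in the ganglion in this state. In whole ganglia, fewer cells of a type and less RNA per cell cannot be told apart.

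Library totals lay between 18484557 and 18756736 estimated reads. SNI_G15 replicate 3 stood somewhat apart: its counts differed from those of replicates 1 and 2 with a chi-square per degree of freedom of 8.50 and 8.24, against 3.08 between replicates 1 and 2 and 2.56 to 4.60 within the other groups. No pair of libraries within a group was close enough to be 1 library deposited more than once, and pairs between groups were not compared in this way. In SNI against sham, 3336 of 14305 tested genes were higher (23.3%) and 3201 were lower (22.4%), by edgeR's quasi-likelihood test at an adjusted p below 0.05.

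The name near-silent held for 7 of the 9 genes. FPKM (fragments scaled to transcript length and library size, a level per length) was below 1 in every sham library for Crisp3, Ptprh, Fcrl2, Tgm1, Stac2, Csrp3 and Reg3b. A2m and Flrt3 went against the name: both were at about 5 FPKM in sham, and they are described here as genes that start from a low but measurable level. All 9 genes passed the filter of 1 FPKM in at least 1 library, and the 7 near-silent ones passed only through injured libraries.

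**Figure D1:**
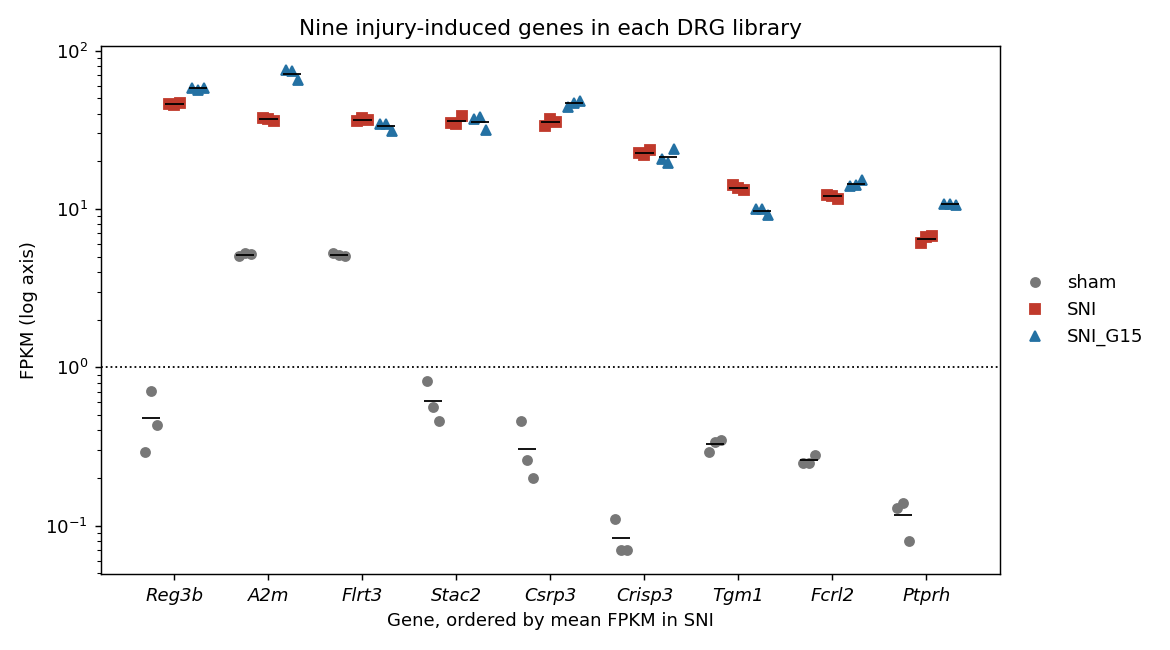
FPKM of the 9 genes in each of the 9 libraries on a log axis; each point is 1 library, short lines are group means, and the dotted line marks 1 FPKM. Sham points of 7 genes lie below the line and those of A2m and Flrt3 lie near 5, and for every gene the sham points lie below all injured libraries.

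The first group encodes secreted proteins. Reg3b is a small C-type lectin of the regenerating islet-derived (REG) family, first known from the inflamed pancreas and also described in regenerating sensory and motor neurons. Its FPKM was 0.29, 0.71 and 0.43 in sham, 45.96, 45.30 and 46.53 in SNI, and 58.41, 56.68 and 57.65 in SNI_G15. The sham values rested on 4, 10 and 6 reads and the SNI values on 640 to 654 reads. Reg3b had the highest SNI level of the 9 genes, all SNI libraries were within a narrow band, and all SNI_G15 libraries were above that band.

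Crisp3 encodes a cysteine-rich secretory protein, known from salivary gland, the male reproductive tract and neutrophil granules. Its FPKM was 0.11, 0.07 and 0.07 in sham, from 3, 2 and 2 reads. It was 22.61, 21.95 and 23.56 in SNI, from 608 to 651 reads. In SNI_G15 it was 20.76, 19.50 and 23.78, so these libraries fell below, below and above the SNI range. Crisp3 was the quietest of the 9 genes in sham and its ratio was the largest.

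A2m encodes alpha-2-macroglobulin, a broad protease inhibitor of plasma that traps its targets and is a classical acute-phase protein of the rat, induced in liver through IL-6 and STAT3. Its FPKM was 5.03, 5.23 and 5.20 in sham, 37.36, 37.17 and 35.85 in SNI, and 75.40, 73.83 and 64.96 in SNI_G15. The 3 groups did not overlap, and the lowest SNI_G15 library, replicate 3, was still well above every SNI library. A2m has 1 transcript in the annotation used, yet its estimated count was not a whole number (within 0.001) in 9 of 9 libraries, which happens when reads are shared with another gene; its level is therefore uncertain. The other 8 genes had whole counts in all 9 libraries.

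The next group encodes proteins of the cell surface. Ptprh is a receptor tyrosine phosphatase of the R3 class, known from the brush border of the gut. Its FPKM was 0.13, 0.14 and 0.08 in sham, 6.07, 6.67 and 6.72 in SNI, and 10.70, 10.74 and 10.58 in SNI_G15. It had the lowest SNI level of the 9 genes, and its SNI_G15 libraries lay close together and above all SNI libraries.

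Fcrl2 encodes a member of the Fc receptor-like family, immunoglobulin-domain receptors of which several are known from B cells. Which cells of the ganglion held its RNA was not tested. Its FPKM was 0.25, 0.25 and 0.28 in sham, 12.33, 12.05 and 11.61 in SNI, and 13.93, 14.17 and 15.22 in SNI_G15. Sham libraries held 10 to 11 reads each, and the SNI and SNI_G15 groups did not overlap.

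Flrt3 encodes a fibronectin and leucine-rich transmembrane protein that acts in cell adhesion and axon guidance by binding latrophilins and UNC5 receptors. Its FPKM was 5.27, 5.11 and 5.05 in sham, 35.87, 37.24 and 36.68 in SNI, and 34.14, 34.59 and 31.12 in SNI_G15. Every SNI_G15 library was below every SNI library, by a small margin.

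The last group acts inside the cell. Csrp3 encodes muscle LIM protein, a cytoskeletal protein of striated muscle that has also been described in axotomised neurons. Its FPKM was 0.46, 0.26 and 0.20 in sham, from 7, 4 and 3 reads. It was 33.34, 36.75 and 35.43 in SNI, and 44.08, 46.96 and 48.00 in SNI_G15, with no overlap between these groups.

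Stac2 encodes an adaptor with SH3 and cysteine-rich domains that binds voltage-gated calcium channels of the L type. Its FPKM was 0.82, 0.56 and 0.46 in sham, 34.79, 34.48 and 38.39 in SNI, and 36.81, 37.89 and 31.37 in SNI_G15. SNI and SNI_G15 libraries were intermingled, with SNI_G15 replicate 3 the lowest of the 6.

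Tgm1 encodes a transglutaminase that cross-links proteins of the cornified envelope in skin. Its FPKM was 0.29, 0.34 and 0.35 in sham, 14.08, 13.48 and 13.10 in SNI, and 10.03, 10.02 and 9.09 in SNI_G15. The groups did not overlap, and all 3 SNI_G15 libraries were below the SNI range.

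The size of the difference between SNI and sham spanned a wide range. From the reads of 3 libraries each, SNI held 269 times the sham reads of Crisp3, with an exact 95% counting interval of 130 to 670. The ratio was 121 for Csrp3 (72.2 to 223), 97.1 for Reg3b (62.7 to 159) and 69.8 for Ptprh (45.9 to 112). It was 58.8 for Stac2 (48.5 to 72.0), 46.0 for Fcrl2 (32.3 to 68.0) and 27.4 for Tgm1 (21.9 to 34.7). A2m at 7.14 (6.75 to 7.57) and Flrt3 at 7.12 (6.61 to 7.67) stood well below the others. The intervals cover counting error only and are wide for the quietest genes because 7 sham reads of Crisp3 or 14 of Csrp3 set the denominator. From Crisp3 down to Tgm1 each interval overlaps the next, while those of A2m and Flrt3 lie apart from the rest. The ratios of neighbours were not compared directly, and overlap alone does not decide their order.

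**Figure D2:**
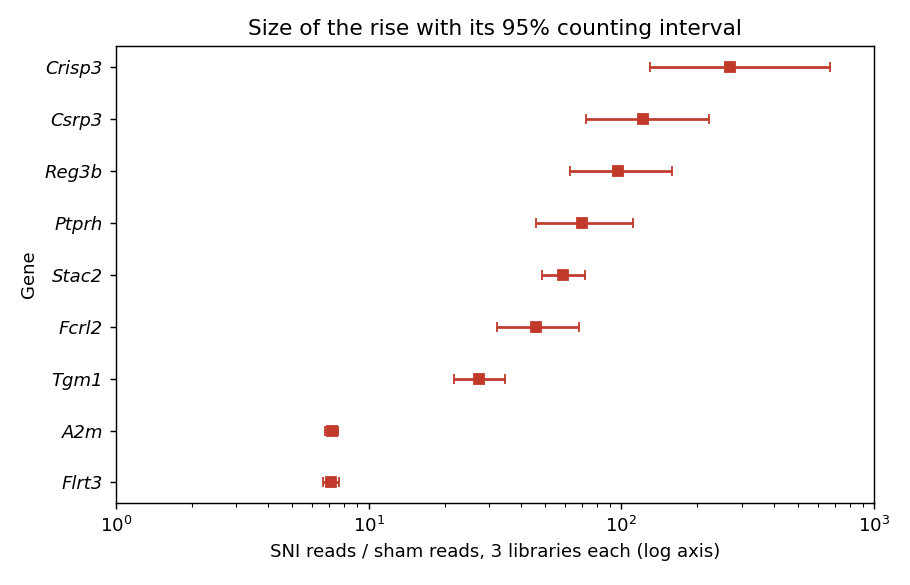
Reads in SNI divided by reads in sham, summed over 3 libraries each, for the 9 genes on a log axis; bars are exact 95% counting intervals. Crisp3 is at 269 and Tgm1 at 27.4, while A2m and Flrt3 are both near 7.1 with much narrower bars.

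On edgeR's fitted log2 scale the differences were 7.97 for Crisp3, 6.86 for Csrp3, 6.55 for Reg3b, 6.07 for Ptprh, 5.84 for Stac2, 5.48 for Fcrl2, 4.74 for Tgm1, 2.81 for A2m and 2.80 for Flrt3. Ranked among the 14305 tested genes from the highest, Crisp3 was number 14 and Tgm1 number 47, with the other 5 near-silent genes between them, and A2m and Flrt3 were numbers 95 and 96. These ranks follow from how the genes were chosen. With limma-trend on log2(FPKM + 1) the difference of Crisp3 was 4.45 and that of Reg3b was 5.00, the reverse of their order on counts. On that scale, which shrinks low levels, Ptprh (2.74) came level with A2m (2.62) and Flrt3 (2.61).

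The order of levels in SNI, per length, differed from the order of ratios. Reg3b (mean FPKM 45.9 ± 0.616, SD, n = 3) was above all others in every library. A2m (36.8 ± 0.823), Flrt3 (36.6 ± 0.689), Stac2 (35.9 ± 2.17) and Csrp3 (35.2 ± 1.72) followed with overlapping libraries and cannot be ordered. Crisp3 (22.7 ± 0.809), Tgm1 (13.5 ± 0.494), Fcrl2 (12 ± 0.363) and Ptprh (6.49 ± 0.362) came next, each separated from its neighbours.

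Replicates were tight in the injured groups. The coefficient of variation of FPKM over the 3 libraries ranged from 1.34% (Reg3b) to 6.06% (Stac2) in SNI and from 0.780% (Ptprh) to 10.3% (Crisp3) in SNI_G15. In sham it reached 44.9% for Reg3b and 44.4% for Csrp3, genes with 3 to 10 reads per library. Set against the square root of the mean count, which is the spread that counting alone gives, the SD of the counts was smaller for 7 of 9 genes in sham, for 5 of 9 in SNI and for 1 of 9 in SNI_G15. The largest excess was 5.58 times for A2m and 4.09 times for Stac2, both in SNI_G15. For these genes replicate 3 was the low library, as it was for Tgm1, Flrt3 and Ptprh, and it was the high one for Crisp3, Fcrl2 and Csrp3.

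A wider class put the genes in place. FPKM was below 1 in all sham and above 1 in all SNI libraries for 216 genes, which held the 7 near-silent genes and 209 others. The median SNI level of the class was 1.64 FPKM and its highest was 64.7. By SNI level Reg3b was number 3 of the class, Stac2 4, Csrp3 5, Crisp3 6, Tgm1 9, Fcrl2 11 and Ptprh 18. Among the first 8 genes of the class by level, those not chosen were Serpina3n, Hamp, Vip and Sprr1a. The protease inhibitor Serpina3n was at 0.373 FPKM in sham and 64.7 in SNI, and Hamp, the iron hormone hepcidin, at 0.163 and 57.6. The neuropeptide Vip was listed at 0 in every sham library and was at 22.5 in SNI. Sprr1a, a cornified envelope protein also known from regenerating axons, was at 0.0467 and 20.5. Other genes that were not chosen lay between and below the lower-ranked of the 7.

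**Figure D3:**
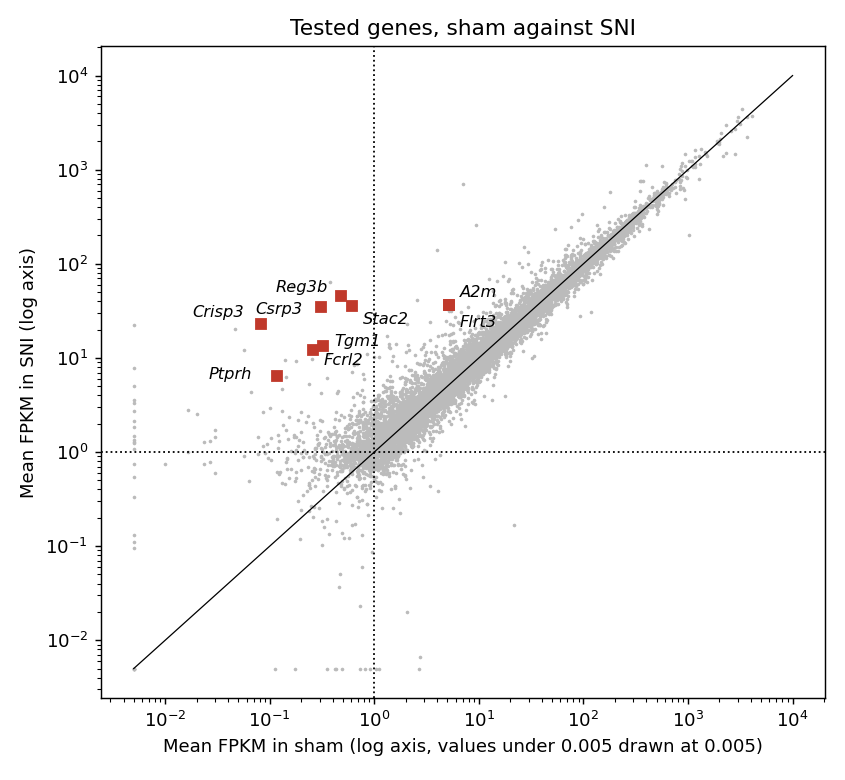
Mean FPKM of each of the 14305 tested genes in sham (horizontal) and SNI (vertical), both on log axes, with the 9 genes as red squares; the solid line marks equal levels and the dotted lines 1 FPKM. The 7 near-silent genes lie in the upper left, and A2m and Flrt3 fall on the same place right of the vertical dotted line.

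The contrast of SNI_G15 with SNI asked whether the injured level differed after G15, given in its vehicle through a catheter. By edgeR's quasi-likelihood test, with p-values adjusted by Benjamini-Hochberg over all 14305 genes, 6 of the 9 genes passed an adjusted p of 0.05, 5 of them higher and 1 lower in SNI_G15. Over all tested genes 15.2% passed, 7.98% higher and 7.25% lower. FPKM values of the groups did not overlap for 7 of the 9 genes, against 38.3% of all tested genes. The median log2 fold change was 0.28 over the 9 genes and 0.01 over all tested genes. The SNI arm of this contrast had been used to choose the genes.

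A2m changed the most, by 0.97 ± 0.06 on the log2 scale (SE, edgeR adjusted p = 2.31e-05), a 1.96-fold higher level than in SNI. Ptprh rose by 0.70 ± 0.05 (edgeR adjusted p = 9.54e-05), or 1.63-fold. Csrp3 rose by 0.41 ± 0.06 (edgeR adjusted p = 0.00300) and Reg3b by 0.34 ± 0.05 (edgeR adjusted p = 0.00241), 1.33-fold and 1.27-fold. Each of these 4 genes was higher in 3 of 3 SNI_G15 libraries than in any SNI library, and each stayed past the threshold in all alternatives, with edgeR, DESeq2 or limma adjusted p no higher than 0.0204.

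Fcrl2 was higher by 0.28 ± 0.06 (edgeR adjusted p = 0.0170), or 1.22-fold. This call was the least secure: without SNI replicate 2 its edgeR adjusted p was 0.0697 and without SNI replicate 3 it was 0.0828, although the log2 fold change stayed at 0.28 and 0.26. Tgm1 was the 1 gene that fell, by 0.46 on the log2 scale with an SE of 0.06 (edgeR adjusted p = 0.00167), to 0.727 of its SNI level. Its call held in all alternatives, where the adjusted p was at most 0.0124.

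The remaining 3 genes did not pass. Flrt3 had a log2 fold change of -0.12 ± 0.05 (edgeR adjusted p = 0.113), although its groups did not overlap. Crisp3 had -0.07 ± 0.08 (edgeR adjusted p = 0.551). Stac2 had -0.01 ± 0.07 (edgeR adjusted p = 0.943), and the sign turned to 0.06 without SNI_G15 replicate 3 and to 0.04 without SNI replicate 3. A p that misses the threshold does not show that these levels were equal; with SEs of 0.05 to 0.08 on the log2 scale, changes of the size seen for A2m or Ptprh lay many SEs away. Leaving out SNI_G15 replicate 3, the library that stood apart, gave the same number of calls, 6 of 9, with A2m at 1.03, Ptprh at 0.73, Csrp3 at 0.38, Reg3b at 0.33, Fcrl2 at 0.23 and Tgm1 at -0.42.

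**Figure D4:**
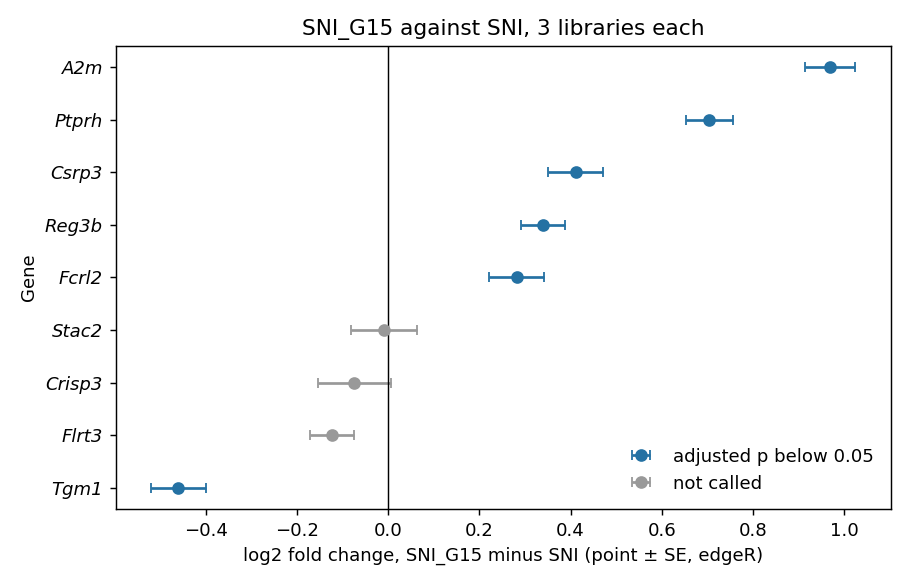
edgeR log2 fold change of SNI_G15 minus SNI for the 9 genes, 3 libraries per group; points are estimates, bars are SEs, and blue points passed an adjusted p of 0.05. A2m (0.97) and Ptprh (0.70) lie farthest right, Tgm1 (-0.46) lies left, and the grey points of Flrt3, Crisp3 and Stac2 lie near 0.

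The same levels can be read as the share of the difference from sham that was present after G15, that is the mean SNI_G15 level above sham as a percentage of the mean SNI level above sham, in TMM-scaled CPM, the counts divided by library size. It was 212% for A2m (194% to 223% over the 3 SNI_G15 libraries), 164% for Ptprh (158% to 169%) and 133% for Csrp3 (127% to 140%). It was 127% for Reg3b (125% to 128%) and 122% for Fcrl2 (116% to 130%). Stac2 at 99.3% (89.1% to 106%) and Crisp3 at 95% (86.5% to 107%) straddled the full value. Flrt3 was at 90.4% (84.6% to 94.4%) and Tgm1 at 71.6% (67.3% to 73.9%). No gene came close to its sham level in any SNI_G15 library: against sham, SNI_G15 still held 19.7 times the reads of Tgm1 (15.7 to 25.1) and 6.48 times those of Flrt3 (6.02 to 6.98).

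**Figure D5:**
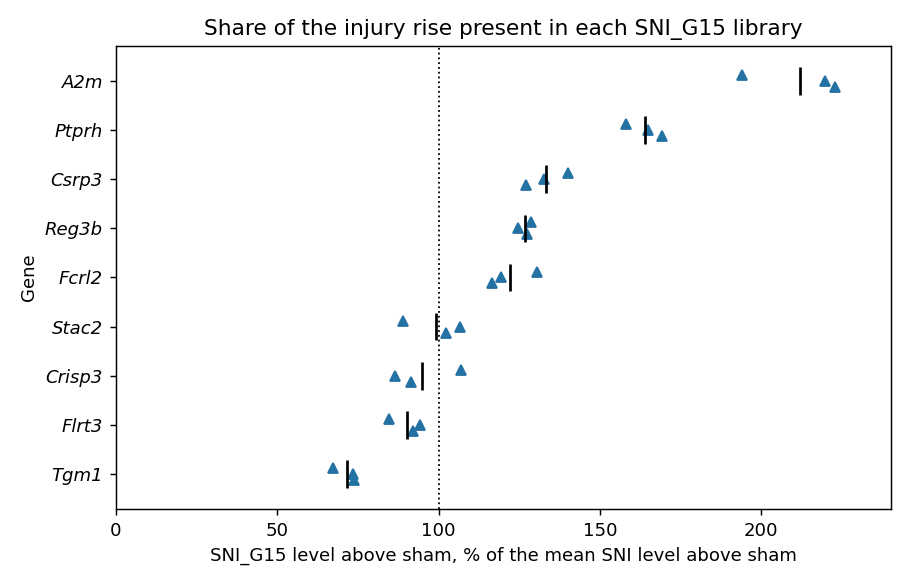
Share of the SNI minus sham difference present in SNI_G15, in percent, for the 9 genes; triangles are the 3 SNI_G15 libraries, black lines their mean, and the dotted line marks 100%. Libraries of 5 genes lie wholly above 100%, those of Tgm1 and Flrt3 wholly below it, and those of Stac2 and Crisp3 on both sides.

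The order of the levels differed in SNI_G15. There A2m led with 71.4 ± 5.63 FPKM (SD, n = 3), followed by Reg3b with 57.6 ± 0.867 and Csrp3 with 46.3 ± 2.03, each without overlap. Stac2 (35.4 ± 3.49) and Flrt3 (33.3 ± 1.89) overlapped, Crisp3 (21.3 ± 2.20) and Fcrl2 (14.4 ± 0.686) followed, and Ptprh (10.7 ± 0.0833) had passed Tgm1 (9.71 ± 0.540), the reverse of their order in SNI. The class of 216 genes was defined by FPKM above 1 in every SNI library, so no calls against SNI are counted within it. In 12 genes of the class FPKM was below 1 in every SNI_G15 library, and none of the 7 was among them.

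Relatives of the genes were examined from lists of their families, and the REG lectins are given first. Reg3a, the next protein-coding gene beside Reg3b in RefSeq's gene order, went from a mean FPKM of 0.350 to 6.14. Reg3g, also of this family, went from 0.0233 to 0.743. Reg1a and Reg4 stayed below 1 FPKM in every library, and Extl3, named as a REG receptor, had a log2 fold change of -0.13 ± 0.07 in SNI against sham (SE, edgeR adjusted p = 0.169). Reg3a and Reg3g passed the filter only through injured libraries, Reg3g through 1 FPKM in a single SNI library, so no test against sham is given for them. In SNI_G15 against SNI neither Reg3a (log2 fold change 0.38 ± 0.18, SE, edgeR adjusted p = 0.173) nor Reg3g (-0.68 ± 0.43, edgeR adjusted p = 0.301) passed.

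Stac2 and its relative Stac differed in level and direction. Stac was abundant in sham (44.8 FPKM) and fell by 0.19 in SNI with an SE of 0.04 (edgeR adjusted p = 0.00231), while Stac3, the skeletal muscle member, stayed at or below 0.05 FPKM on average in each group. The L-type channel subunits Cacna1c and Cacna1d, to which STAC proteins bind, did not pass (edgeR adjusted p = 0.337 and 0.0522), and Cacna1s was below 1 FPKM throughout. In SNI, Stac2 reached a mean of 35.9 FPKM beside 40.1 for Stac.

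Of the relatives of Csrp3, Csrp1 was at 141 FPKM in sham and 145 in SNI (edgeR adjusted p = 0.796), and Csrp2 fell by 0.43 in SNI (edgeR adjusted p = 0.0163). Both rose in SNI_G15 against SNI, Csrp1 by 0.30 and Csrp2 by 0.70 (edgeR adjusted p = 0.00118 and 0.00847), the same direction as Csrp3. Among relatives of Tgm1, Tgm2 rose by 0.32 with injury (edgeR adjusted p = 0.000582) and by 0.24 in SNI_G15 against SNI (edgeR adjusted p = 0.0354), where Tgm1 fell. The plasma transglutaminase F13a1 fell by 0.51 with injury (edgeR adjusted p = 0.00557) and rose by 0.86 in SNI_G15 against SNI (edgeR adjusted p = 0.000380).

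For Ptprh, the R3-class phosphatases Ptpro and Ptprj rose in SNI by 1.05 and 0.56 (edgeR adjusted p = 1.95e-06 and 0.000132) from levels of 4.89 and 5.21 FPKM, and Ptprb did not pass (edgeR adjusted p = 0.0749). In SNI_G15 against SNI Ptpro fell by 0.25 (edgeR adjusted p = 0.0295), opposite to Ptprh. For Flrt3, Flrt1 fell by 0.62 (edgeR adjusted p = 0.000615) and Flrt2 did not pass (edgeR adjusted p = 0.0738). Of its partners, Adgrl1, Unc5a and Unc5b fell in SNI by 0.16, 0.25 and 0.48 (edgeR adjusted p = 0.0382, 0.0184 and 0.000138) and no partner rose.

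The relatives of Crisp3 in the CAP superfamily moved both ways. Glipr1 and Glipr2 rose by 0.99 and 0.90, while Pi16 and Crispld2 fell by 1.09 and 0.23, each at an edgeR adjusted p of 0.00376 or less. Crispld1 went from a mean FPKM of 0.907 in sham to 0.553 in SNI. It passed the filter only through sham, so no test is given for it. Crisp2, the nearest relative listed, was below 0.1 FPKM on average in each group. For Fcrl2, the relatives Fcrl1, Fcrl5 and Fcrlb were below 1 FPKM in every library. Fcrla passed the filter only through injured libraries and went from a mean FPKM of 0.607 in sham to 0.933 in SNI, without a test. For A2m, Pzp, A2ml1 and Cd109 stayed below 1 FPKM on average in every group, and the alpha-2-macroglobulin receptor Lrp1 was at 10.2 FPKM in sham and 10.5 in SNI (edgeR adjusted p = 0.948).

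Genes of the pathways around A2m were then counted, leaving A2m out. Of 18 other acute-phase genes listed, 10 were tested. Of these, 6 reached 1 FPKM in a sham library (Lbp, Hp, Cp, Serpina1, Lcn2 and C3), and 6 of the 6 rose in SNI against sham, where 23.3% of all tested genes did. The largest difference among them was that of complement C3 (2.62). The other 4, Serpina3n (7.39), the kininogens Kng2 (3.44) and Kng1 (2.66), and Itih3 (1.14), were also called higher but passed the filter only through injured libraries. Against SNI, 2 of the 10 in SNI_G15 were higher, 2 were lower and 6 did not pass, where 15.2% of all tested genes were called. Lbp, which binds lipopolysaccharide, rose by 2.39 and Itih3 by 0.70, whereas Serpina3n fell by 1.15 and C3 by 0.50 (edgeR adjusted p = 5.90e-07, 0.0256, 1.80e-06 and 0.00112).

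Of 18 genes for IL-6 family ligands, their receptors and STAT3 signalling, 16 were tested and 13 reached 1 FPKM in a sham library. Of those 13, 9 rose and 2 fell with injury, where 23.3% of all tested genes rose and 22.4% fell. Socs3, a feedback inhibitor induced by STAT3, went from 3.44 to 24.0 FPKM, and Il6, kept only through injured libraries, from 0.0167 to 2.83. Between SNI_G15 and SNI, of 15 that had reached 1 FPKM in a SNI library, 5 rose and 2 fell in SNI_G15, where 7.98% and 7.25% of all tested genes did. Clcf1 rose by 1.78 and Cntf by 0.80, while Il6 fell by 0.83 (edgeR adjusted p = 0.00034, 0.000353 and 0.0221). Lif, at 0.300 FPKM in SNI and 1.35 in SNI_G15, passed the filter only through SNI_G15. Of 14 transcription factors of the injury response, 13 rose with injury (median log2 fold change 1.03, beside 0.00 and 23.3% higher over all tested genes), led by Atf3 (5.13), Sox11 (3.31) and Jun (1.73). In SNI_G15 against SNI 2 of these rose, Cebpd by 0.59 and Cebpb by 0.48 (edgeR adjusted p = 0.00034 and 0.00990), and Klf7 fell by 0.21 (edgeR adjusted p = 0.0299); Atf3 and Sox11 had log2 fold changes of -0.04 and 0.04 (edgeR adjusted p = 0.516 and 0.790).

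Markers of skeletal muscle, B cells and keratinocytes, where Csrp3, several genes of the Fcrl family and Tgm1 are known, were mostly below 1 FPKM. Of 16 skeletal muscle markers, 12 were below 1 FPKM in every sham and 12 in every SNI library. Their summed FPKM spanned 14.3 to 15.2 over the sham libraries, 14.1 to 14.4 over SNI and 14.5 to 16 over SNI_G15, a large part of it Acta1. The 5 tested had edgeR adjusted p of 0.0911 to 0.806 in SNI against sham, while Csrp3 went from 0.307 to 35.2 FPKM. In SNI_G15 against SNI 1 of them fell (Myh7, by 0.33, edgeR adjusted p = 0.0471). Of 7 B cell markers, 7 were below 1 FPKM in every SNI library, with a summed FPKM of at most 1.90 in sham, 1.86 in SNI and 1.72 in SNI_G15, while Fcrl2 went from 0.260 to 12 FPKM. Of 14 other cornified envelope and keratinocyte genes, 3 passed the filter. Sprr1a passed it only through injured libraries and went from a mean FPKM of 0.0467 in sham to 20.5 in SNI, without a test. Sbsn rose by 0.82 (edgeR adjusted p = 0.00702) and Krt10 did not pass (edgeR adjusted p = 0.385). Krt5, Krt14, Ivl and Lor were below 1 FPKM on average in every group.

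Markers of other cells moved between SNI and sham, where 23.3% of all tested genes rose and 22.4% fell. Of 11 macrophage markers 10 rose, with sums over sham libraries of 519 to 575 FPKM and over SNI of 1130 to 1170. Erythroid markers rose in 5 of 5 cases (95.2 to 99.2 over sham, 318 to 327 over SNI), neutrophil markers in 4 of 6 (121 to 145 and 189 to 224) and T cell markers in 4 of 7 (15.8 to 17.2 and 33.3 to 33.6, most of it Cd4); of the markers that rose, 2 erythroid, 2 neutrophil and 2 T cell markers passed the filter only through other groups than sham. The T cell marker Lck did not pass (edgeR adjusted p = 0.0588). Cd3d and Cd3g passed the filter only through SNI libraries, so no test is given for them. Their mean FPKM went from 0.39 and 0.547 in sham to 0.783 and 0.947 in SNI. Schwann cell markers fell in 5 of 6 cases (5206 to 5313 over sham, 2847 to 2901 over SNI). Of 14 sensory neuron markers 9 fell and 2 rose (16920 to 17320 and 14390 to 14770). Of 7 fibroblast markers 2 rose and 3 fell, and of 6 satellite glia and 6 endothelial markers 1 rose and 1 fell in each list.

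Other markers moved between SNI_G15 and SNI, where 7.98% of all tested genes were higher in SNI_G15 and 7.25% were lower. Fibroblast markers rose in 6 of 7 cases, with sums of 454 to 455 over SNI and 610 to 633 over SNI_G15. Schwann cell markers rose in 5 of 6 (3076 to 3197 over SNI_G15) and macrophage markers in 3 of 11 (1287 to 1325). Erythroid markers fell in 5 of 5 (191 to 223). Of 7 T cell markers Cd4 and Cd8a rose by 0.14 and 0.89 (edgeR adjusted p = 0.0470 and 0.0142). Cd3e went from a mean FPKM of 1.14 in SNI to 0.397 in SNI_G15, and Cd3d from 0.783 to 0.137. These 2 markers passed the filter only through SNI libraries, so no test of their fall is given. Of 6 neutrophil markers 1 rose, of 6 endothelial markers 2 rose and 1 fell, of 6 satellite glia markers 1 rose and 1 fell, and of 14 sensory neuron markers 2 rose and 2 fell. The part of these cell types in the levels of the 9 genes was not tested.

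Where a gene has more than 1 transcript model, the model that took the reads was compared, from the deposited transcript estimates. All 14 sham reads of Csrp3 and all 22 of Ptprh were given to the curated model. In SNI, 46.8% of Csrp3 reads (41.2% to 51.1% over libraries) and 60.5% of Ptprh reads (50.03% to 74.8%) were given to a predicted model. A count of 0 among so few sham reads allows a share of up to 21.4% for Csrp3 and 13.6% for Ptprh, for counting error only. Tgm1 has 4 models: the curated one held 0 of 79 sham reads, which allows a share of up to 3.80%, and 85.6% of the reads in SNI (82.9% to 88.8%) and 85.3% in SNI_G15. For Stac2 a predicted model took 90.6% of the sham reads and 100% in SNI. Between SNI and SNI_G15 the shares overlapped for Csrp3 (34.7% to 56.0% in SNI_G15) and Ptprh (45.0% to 65.5%). Assignment of a read between overlapping models is an estimate, and no test was run on these shares.

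The genes do not form 1 block in the genome. In RefSeq's gene order (GRCr8, used for names and order only), none of the 9 was the next protein-coding gene to another. Of their 18 nearest neighbours, 13 were tested: 2 rose in SNI (Reg3a, kept by the filter only through injured libraries, and Kirrel1, by 0.36), 4 fell and 7 did not pass, a share called near the 45.7% of all tested genes. Syt5 beside Ptprh (33.3 FPKM in sham), Zdhhc13 beside Csrp3 (10.3) and Rpl19 beside Stac2 (502) had log2 fold changes of -0.06, 0.02 and 0.01 and did not pass (edgeR adjusted p = 0.365, 0.800 and 0.853).

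Sequence upstream of the annotated start was available for 5 of the 9 genes (Crisp3, Flrt3, Ptprh, Reg3b and Tgm1) from RefSeq, build GRCr8; A2m, Fcrl2, Stac2 and Csrp3 had no entry. The 250 bases before the start are shown for Reg3b, the most abundant gene in SNI and the 1 with motif matches, for Crisp3, which had the largest ratio, and for Flrt3, which was already expressed in sham. They lie at chr4:112419526-112419775 (+), chr9:27928341-27928590 (+) and chr3:148461406-148461655 (-), and capitals mark the matches.
Reg3b: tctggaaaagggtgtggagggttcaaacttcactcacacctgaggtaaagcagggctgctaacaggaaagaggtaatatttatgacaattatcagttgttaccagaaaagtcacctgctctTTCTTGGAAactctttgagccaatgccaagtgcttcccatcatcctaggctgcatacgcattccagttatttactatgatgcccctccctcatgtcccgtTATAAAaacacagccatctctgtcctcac
Crisp3: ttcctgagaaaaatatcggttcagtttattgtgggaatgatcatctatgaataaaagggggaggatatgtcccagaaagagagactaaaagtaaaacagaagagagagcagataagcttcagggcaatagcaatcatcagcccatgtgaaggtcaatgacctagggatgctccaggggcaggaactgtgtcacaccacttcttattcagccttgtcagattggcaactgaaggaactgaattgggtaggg
Flrt3: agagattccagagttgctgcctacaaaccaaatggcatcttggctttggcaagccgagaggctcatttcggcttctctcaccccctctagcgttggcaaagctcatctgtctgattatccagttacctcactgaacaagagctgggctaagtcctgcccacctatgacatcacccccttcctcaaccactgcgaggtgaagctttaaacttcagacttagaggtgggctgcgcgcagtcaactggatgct

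On both strands of these 250 bases 4 short motifs were searched, and none of the matches found overlapped another. The AP-1 type, TGANTCA, occurs in 6.34% of all 33469 upstream windows of this length. The CRE type, TGACGTCA, occurs in 1.59% of them. The STAT type, TTCNNNGAA, occurs in 7.67%. The TATA box, searched as TATAAA, occurs in 12.9%. Reg3b held TTCTTGGAA from 129 to 121 bases before the start and TATAAA from 29 to 24 bases before it. The windows of Crisp3, Flrt3, Ptprh and Tgm1 held none of the 4 motifs. A match is a run of letters and not a measured site, and a window without one says nothing of the factor.

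Genes with the most similar pattern over the 9 libraries were found by Pearson's r of log2(CPM + 0.5), leaving out the 9 themselves. Because sham and injured libraries fall into separate clusters, r follows mainly that step, and between 594 and 751 tested genes had r above 0.95 with any 1 of the 9; the values are descriptive. Crisp3 was most like Adcyap1, the neuropeptide PACAP (r = 0.9996), and Ankrd1 (0.9995). Fcrl2 was most like Csf1, the macrophage growth factor, and Vip (both 0.9995). Reg3b was most like Csf1 (0.999) and Timp1 (0.9988), and Flrt3 most like Lcp1 (0.9996) and Itpkc (0.9993).

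Csrp3 was closest to Smagp (0.9991) and the tight junction gene Cldn4 (0.999), and Ptprh to Adamts4 (0.9991) and Tubb6 (0.999). Stac2 was closest to Padi3 and Cckbr (both 0.9988), and Tgm1 to Arg1 (0.9984) and Rhoq (0.9982). A2m, whose SNI_G15 step was the largest, was closest to Rcan1 (0.9972) and Sh3glb1 (0.9971). Among the 9 genes themselves r ranged from 0.940 to 0.999 over 36 pairs.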

How the data were processed

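RNA-Seq of DRG from 3 sham, 3 SNI and 3 SNI_G15 samples was analysed. The authors deposited FPKM and TPM values, normalized for library size and length, and estimated counts per gene and transcript, which need not be whole; the TPM were not used for results. Gene FPKM is the sum over transcripts according to the study's methods. The aligner and strand setting are not given in the sources used here; the submitters' processing notes name the mouse builds GRCm38 and mm10 although the identifiers are rat, so the build is unknown. NCBI gene IDs matched RefSeq (GRCr8) for 18599 of 20194 genes. Columns named for controls were taken as sham. Authors' comparison and annotation files were not used.

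After rounding, the estimated counts of 14305 genes with FPKM of at least 1 in at least 1 library entered edgeR's quasi-likelihood test (version 4.0.16, TMM, R 4.3.3), fitting the 2 groups compared. Alternatives used DESeq2 1.42.0, limma 3.58.1 (limma-trend, pseudocount 1 or 0.1), other scaling, filter and samples, the replicate number as a block, and leaving out single replicates. The script was tested on simulated data. The 9 genes and the lists were chosen with earlier results of these data known; named were the 9 genes, 2 most alike genes each, family members above the filter and up to 4 called genes per pathway list, to which silent relatives, genes of similar level and neighbours were added after values were seen. A gene that this rule selects is not reported here.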

Additional observations from a re-analysis of the deposited data

How the results depend on the processing

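In SNI_G15 against SNI the number of genes called was 2179 of 14305 and fell to 1292 with a replicate block; leaving out single replicates gave 893 to 2333, with 1098, 925 and 893 without SNI replicate 1, 2 and 3. Among the 9 genes, 5 or 6 were called in every alternative run. Fcrl2 lost its call under the replicate block (0.28, edgeR adjusted p = 0.0537) and without SNI replicate 2 or 3; its log2 fold change ranged from 0.23 to 0.31 over replicates left out. Stac2, never called, ranged from -0.0615 to 0.0636, with 0.04 without SNI replicate 3 and 0.0636 without SNI_G15 replicate 3. The causes were not tested, except that leaving out a library leaves fewer samples. The replicate block changed no other call among the 9 genes, and the replicate numbers are not known to pair the samples: of 9 correlations of deviations between same-numbered libraries 0 were above 0.1 (-0.13 to 0.029), and 1 was the best of its library. Calls in SNI against sham and in SNI_G15 against sham, and the shares of the difference kept after G15, moved by less than 1.5 times and by less than 1 SD under every alternative run. The sham levels of 7 genes rest on 2 to 47 reads per library, which limits their ratios more than the spread of the injured libraries does.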
